A study of Rattus norvegicus with 4 samples.

Results

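The cell cycle and DNA replication genes described here are a set of 40 named genes whose products drive DNA copying, mitosis and the cyclin dependent kinase engine between them. They were found on the arrays through the accession (30 probes) or the gene symbol (27 probes) in the files, which gave 57 probes for 38 of the 40 genes, among 15544 genes with a named probe in all. Of these 38 genes, 29 gave a tested value, and the other 11 of the 40 are accounted for below. The tissue was mucosa from the colon of inbred F344 rats. All rats of both groups had drunk 5% dextran sodium sulphate (DSS) for 5 days, which injures the colonic epithelium and causes colitis. The resveratrol plus DSS group had first eaten resveratrol, a plant polyphenol, for 20 days at a daily dose of 1 mg per kg, and the DSS control group had been fed standard chow. Each group had 8 rats, and their age and sex are not given in the sources used here. On each of 4 arrays, Cy5 carried RNA pooled from 2 resveratrol rats and Cy3 carried a pool of control RNA. The dyes were not exchanged, so a dye effect and the treatment cannot be told apart. Each pair of resveratrol rats was hybridised once, slide 1 held the arrays of rats 1 and 2 and of rats 3 and 4, and slide 2 held those of rats 5 and 6 and of rats 7 and 8.

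Cells that divide copy their DNA once and then share it between daughter cells. Cyclins bound to cyclin dependent kinases start each step, the MCM helicase opens the origins, primase and the sliding clamp serve the forks, and kinases, kinesin motors and the anaphase promoting complex carry the cell through mitosis. In the colon, dividing cells lie in the lower crypt and renew the epithelium, and DSS injury and its repair change how many cells divide. Transcription of replication genes is widely controlled by E2F factors. Many mitotic genes are controlled through a short element called the cell cycle genes homology region (CHR), often beside CCAAT boxes bound by NF-Y.

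The promoter windows of 4 members are shown because the E2F and CHR letters were not equally frequent across roles. They are RefSeq sequences of the GRCr8 build, 300 bases long around the annotated start, written 5′ to 3′ on the strand of the gene. Capitals mark the letters searched for on both strands: CCAAT, the CHR words TTTGAA and also TTTAAA, and 4 E2F words, which are TTCCCGC and also TTGGCGC plus the related TTCGCGC and also TTGCCGC. Words may overlap, as a reversed E2F word and a forward one do in Mcm6, and a run of capitals can then hold more than 1 match.
Mcm6 promoter window, chr13:42404303-42404602, reverse strand: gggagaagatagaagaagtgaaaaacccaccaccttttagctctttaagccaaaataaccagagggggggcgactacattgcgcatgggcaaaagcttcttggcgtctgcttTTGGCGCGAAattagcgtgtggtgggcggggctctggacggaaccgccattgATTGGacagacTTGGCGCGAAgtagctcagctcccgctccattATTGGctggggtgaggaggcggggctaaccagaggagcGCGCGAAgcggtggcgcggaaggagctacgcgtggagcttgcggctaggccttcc
Cdk1 promoter window, chr20:19265043-19265342, forward strand: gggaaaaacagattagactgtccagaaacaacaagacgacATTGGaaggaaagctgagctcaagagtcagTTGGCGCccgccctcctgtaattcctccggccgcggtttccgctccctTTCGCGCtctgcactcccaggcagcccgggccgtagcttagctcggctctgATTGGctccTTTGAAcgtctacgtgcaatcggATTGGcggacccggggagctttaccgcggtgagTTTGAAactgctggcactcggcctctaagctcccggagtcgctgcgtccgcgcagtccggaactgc
Kif20a promoter window, chr18:26504172-26504471, forward strand: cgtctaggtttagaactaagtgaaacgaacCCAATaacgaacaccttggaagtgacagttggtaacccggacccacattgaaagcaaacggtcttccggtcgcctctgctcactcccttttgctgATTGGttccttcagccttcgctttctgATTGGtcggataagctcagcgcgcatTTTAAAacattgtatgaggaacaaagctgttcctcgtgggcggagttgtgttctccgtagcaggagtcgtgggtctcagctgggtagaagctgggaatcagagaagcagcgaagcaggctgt
Kif2c promoter window, chr5:135899163-135899462, reverse strand: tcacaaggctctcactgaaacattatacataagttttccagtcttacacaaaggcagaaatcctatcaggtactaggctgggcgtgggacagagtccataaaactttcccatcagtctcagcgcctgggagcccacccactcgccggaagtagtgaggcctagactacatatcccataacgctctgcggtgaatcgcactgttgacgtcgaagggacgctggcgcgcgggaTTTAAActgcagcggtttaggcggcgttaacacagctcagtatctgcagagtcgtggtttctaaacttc
The Mcm6 window holds 5 E2F matches, 2 CCAAT matches and no CHR match. The Cdk1 window holds all 3 elements, with 3 CCAAT, 2 CHR and 2 E2F matches. The Kif20a and Kif2c windows each hold 1 CHR match and no E2F match, and Kif20a also has 3 CCAAT matches. The table had a window for 34 of the 40 members. CCAAT occurred in 24 of them (70.6%, against 38.4% of all 19005 protein-coding windows of this length), a CHR word in 19 (55.9%, against 26.1%) and an E2F word in 14 (41.2%, against 12.2%). Among the 13 windows of licensing, fork and nucleotide supply genes, 10 held an E2F word and 2 a CHR word. Among the 13 windows of the mitotic, checkpoint and spindle genes, 0 held an E2F word and 11 a CHR word. The cyclin and kinase genes and the proliferation markers were left out of both groups. Of their windows, 3 of 6 and 1 of 2 held an E2F word, those of Cdk1, Ccnb2 and Mki67 among them. A CHR word stood in 4 of the 6 and in 2 of the 2. These matches describe letters and do not show binding.

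**Figure D1:**
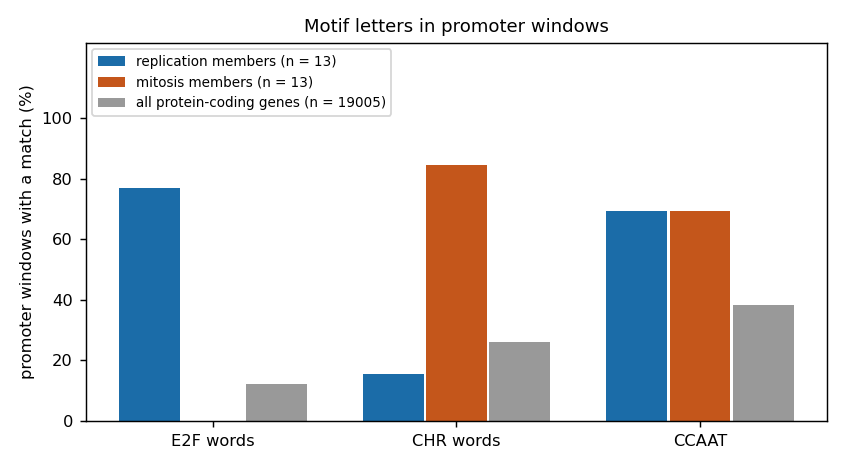
The bars give the percentage of 300-base promoter windows with at least 1 match to the E2F words, the CHR words or CCAAT, for 13 replication members, 13 mitosis members and all 19005 protein-coding genes. E2F words stood in 76.9% of the replication windows and in none of the mitosis windows, while CHR words stood in 15.4% and 84.6%. The cyclin and kinase genes and the proliferation markers are in neither group of members.

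In the mucosa of the resveratrol rats, 7 of the 29 tested members were called higher than the control pool and 1 was called lower, while 21 were not called. The 7 were the primase subunit Prim1, the helicase subunit Mcm6, the spindle motors Kif2c, Kif11 and Kif20a, the checkpoint kinase Bub1b and the ubiquitin conjugating enzyme Ube2c. Their mean log2 ratios, resveratrol plus DSS over control pool, lay between 0.37 and 0.81. A gene counts as called where its brightest tested probe had an adjusted p under 0.05 in limma, with the Benjamini-Hochberg adjustment over all 18869 tested probes. Of all 9433 genes so tested, 25.7% were called higher and 19.6% lower, so the share of members called higher (24.1%) lay near that of all genes and is no result about the members. The share called lower (3.45%) lay below it. Of the 29 members 20 lay above 0, against 4838 of all 9433 genes. The median member had a log2 ratio of 0.23, against 0.02 for all genes. It was 0.07 on slide 2 alone (0.06 for all genes), 0.09 over the probes with a clear signal in each channel of every array (-0.01 for all genes), and 0.14 without rats 3 and 4 (0.06 for all genes). Since 6 of the 29 passed the signal filter through the resveratrol channel alone and none through the control channel alone, the counts describe the members that could be measured and not the whole set. When arrays were centred on their medians instead of by loess, the median of all genes moved to 0.25 and that of the members to 0.40, with 15 members called higher and 1 lower, against 38.4% and 7.65% of all genes. The higher count was 2 of 28 tested (Prim1 and Kif2c) without rats 1 and 2, where 12.4% of all genes were called higher. Without rats 3 and 4 the count was likewise 2 of 28 (12.8% of all genes). It was 7 without rats 5 and 6 (26.7% of all genes) and 12 without rats 7 and 8 (22.1%). It was 15 on slide 1 alone (35.2%) and 0 of 27 tested on slide 2 alone (5.43%). When slide was a random block it was 5 (20.7%). In that limma fit of slide 2, 2 members were higher and 2 lower at an unadjusted p under 0.05, among the 24 measured there by the same probe. In bulk mucosa, fewer cells of a type and less RNA per cell cannot be told apart.

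The members' ratios were not alike on the 4 arrays. Over the members with a value, the median log2 ratio was 0.29 on the array of rats 1 and 2, 0.39 for rats 3 and 4, 0.29 for rats 5 and 6 and -0.15 for rats 7 and 8, against 0.09, 0.08, -0.01 and 0.04 for all genes. Of the 24 members measured on all 4 arrays, 17 had their lowest ratio on the array of rats 7 and 8 (70.8%, against 32.5% of 6991 such genes). In 10 of the 24 the other arrays lay above 0 and this one below it (41.7%, against 6.98%). Of the 24, 7 lay above 0 on all 4 arrays, and 1 lay below 0 on all of them. The shares over all such genes are not given here for these counts. The mean of slide 1 exceeded that of slide 2 in 21 of the 24 (87.5%, against 71.4% of all such genes). In a limma fit of slide 1 minus slide 2, 0 of 14200 probes had an adjusted p under 0.05. At an unadjusted p under 0.05 there were 5 of the 24 members (20.8%) and 16.03% of all probes. The array of rats 7 and 8 also had the highest share of spots with an outlier flag, 13.69%, against 11.03%, 4.68% and 3.45% on the arrays of rats 5 and 6, rats 3 and 4, and rats 1 and 2, and its part in the result was not tested.

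**Figure D2:**
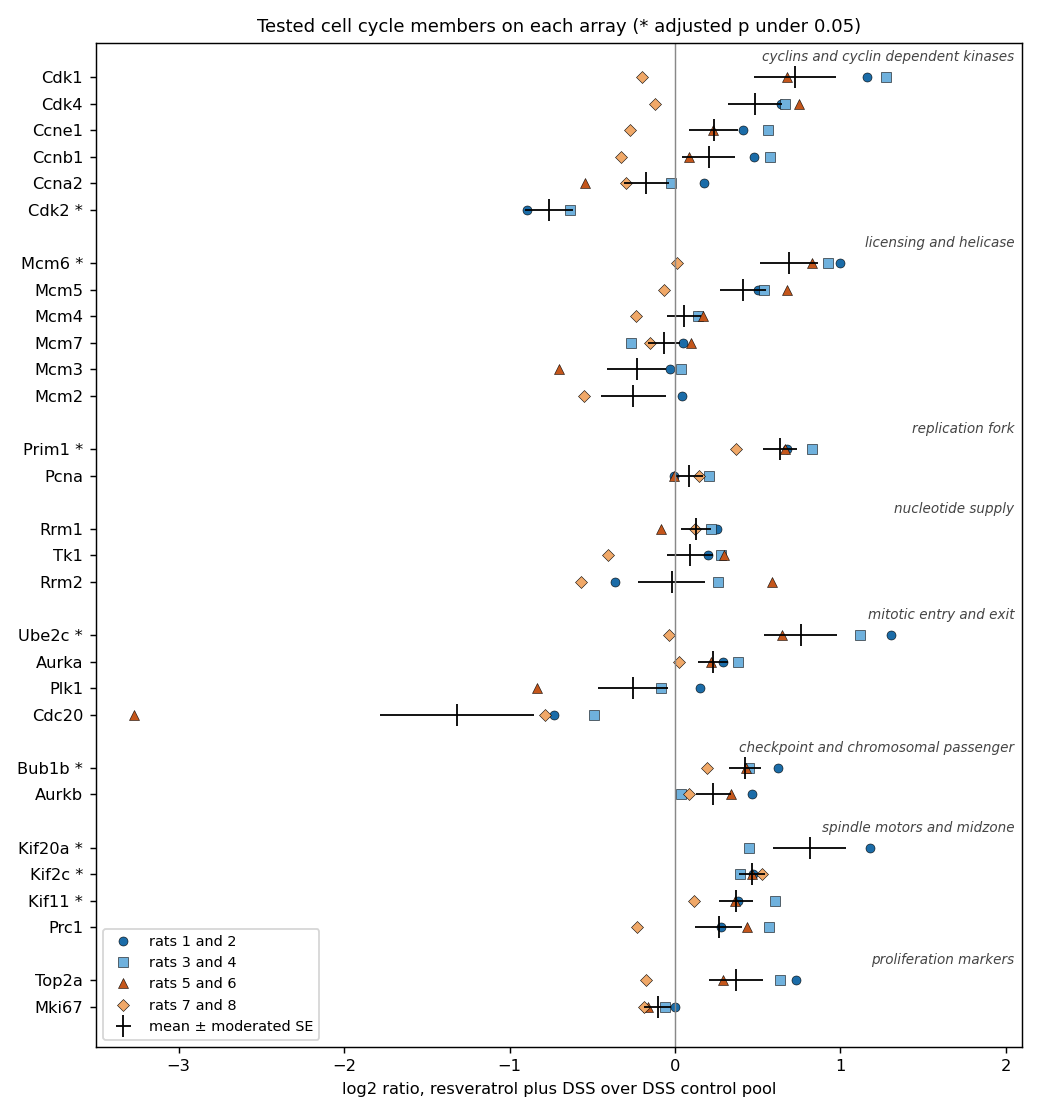
Each row is 1 of the 29 tested members, grouped by role, and the horizontal axis is the log2 ratio of resveratrol plus DSS over the DSS control pool. Coloured points are the 4 arrays, black bars the mean and its moderated standard error, and an asterisk marks an adjusted p under 0.05. The points of rats 7 and 8 lie lowest for 17 of the 24 members with 4 values.

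Cyclins and cyclin dependent kinases set the order of the cycle, and 6 of 7 were tested, with 0 called higher in limma (2 at an unadjusted p under 0.05) and 1 lower. Cdk1, the kinase that with cyclin B drives entry into mitosis, had log2 ratios of 1.16, 1.27, 0.68 and -0.20 on the arrays of rats 1 and 2, rats 3 and 4, rats 5 and 6 and rats 7 and 8, in which order all such lists stand. Both arrays of slide 1 were high and the array of rats 7 and 8 lay below the control pool. The mean, 0.73 ± 0.25 (moderated SE, n = 4), did not pass (adjusted p = 0.0527, limma). Without the array of rats 7 and 8 it was 1.04 and passed (adjusted p = 0.0189, limma). Cdk4, the partner of D-type cyclins in G1, had 0.64, 0.67, 0.75 and -0.12, and its mean of 0.48 ± 0.16 also fell just short (n = 4, adjusted p = 0.0502, limma). Cyclin E (Ccne1) averaged 0.23 and cyclin B1 (Ccnb1) 0.20, neither called.

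The S phase kinase Cdk2 was measured by 2 probes with opposite calls. The brighter probe, at 2000436 to 2000495 of chromosome 7 in the rn3 build, had -0.89 and -0.63 on slide 1 and no unflagged value on slide 2. Its mean was -0.76 ± 0.15 (n = 2, adjusted p = 0.0219, limma). The dimmer probe, at 2001142 to 2001201, had 0.62, 0.52, 0.44 and -0.02, with a mean of 0.39 ± 0.12 (n = 4, adjusted p = 0.0447, limma). The control channel of the dimmer probe was well above background on 1 array only. No direction is therefore given for Cdk2, and the only lower call among the members rests on this pair. Cyclin A2 (Ccna2), which activates Cdk2 in S phase, showed a like split without a call, with -0.17 ± 0.13 from its brighter and 0.54 ± 0.18 from its dimmer probe (n = 4, adjusted p = 0.309 and 0.0527, limma).

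The MCM2 to MCM7 proteins form a ring of 6 subunits, the replicative helicase, and of the 6 only Mcm6 was called. Mcm6 had log2 ratios of 0.99, 0.92, 0.83 and 0.01. The arrays of rats 1 to 6 lay close together and that of rats 7 and 8 was at the level of the pool. The mean was 0.69 ± 0.18, a ratio of 1.61 (n = 4, adjusted p = 0.0253, limma). Mcm5 was also lowest for rats 7 and 8, with 0.50, 0.54, 0.67 and -0.07, but its mean of 0.41 ± 0.14 was not called (n = 4, adjusted p = 0.0509, limma). Mcm2 had only 0.04 for rats 1 and 2 and -0.55 for rats 7 and 8 from its brighter probe (mean -0.25 ± 0.20, n = 2, adjusted p = 0.329, limma). Its dimmer probe had 0.11, -0.03, 0.05 and -0.06, a mean of 0.02 ± 0.08 (n = 4, adjusted p = 0.873, limma). Mcm3, Mcm4 and Mcm7 averaged -0.23, 0.05 and -0.07 and were not called. Differences between subunits were not tested.

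At the replication fork, Prim1, the catalytic subunit of the primase that lays down RNA primers, was higher by both of its probes. Its brighter probe gave log2 ratios of 0.68, 0.83, 0.67 and 0.37. All 4 arrays lay above the pool. The mean was 0.64 ± 0.10, a ratio of 1.55 (n = 4, adjusted p = 0.00779, limma), and the second probe gave 0.36 ± 0.09 with 4 of 4 arrays above 0 (n = 4, adjusted p = 0.0233, limma). The brighter probe is written here because its gene kept its call in 20 of 21 alternative settings, the exception being slide 2 alone.
Prim1 probe, chr7:1321717-1321776, rn3: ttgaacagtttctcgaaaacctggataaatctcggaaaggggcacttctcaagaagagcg
Pcna, the sliding clamp that holds polymerases on DNA, gave different answers by probe. Its brighter probe had -0.004, 0.20, -0.005 and 0.15, a mean of 0.09 ± 0.08 (n = 4, adjusted p = 0.419, limma). The other probe had 1.22, 1.53, 0.51 and -0.07, a mean of 0.80 ± 0.26 (n = 4, adjusted p = 0.0484, limma). The first varied little over the arrays and the second was high on slide 1 and at the level of the pool for rats 7 and 8.

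Of the genes that supply deoxynucleotides, none of the 3 tested was called by its brightest probe. Rrm1, the large subunit of ribonucleotide reductase, carried 3 tested probes. The brightest had 0.25, 0.22, -0.08 and 0.12, a mean of 0.13 ± 0.09 (n = 4, adjusted p = 0.28, limma). The second had 0.90, 0.64, 0.67 and 0.44, a mean of 0.66 ± 0.10, and was called (n = 4, adjusted p = 0.00700, limma). The dimmest had 0.56, 0.51, 0.37 and 0.20, a mean of 0.41 ± 0.09, and was called too (n = 4, adjusted p = 0.0196, limma). The 3 sequences are set together because they cover nearby pieces of chromosome 1 in rn3 and each has a forward reading frame free of stop codons, yet they give ratios from 1.09 to 1.58. The first and second are placed over 941 and 1719 bases of genome for 60 bases of probe, so each covers more genome than its own length, as a probe across an exon junction does.
Rrm1 brightest probe, chr1:160014147-160015087, rn3: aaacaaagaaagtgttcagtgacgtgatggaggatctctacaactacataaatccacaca
Rrm1 second probe, chr1:160015113-160016831, rn3: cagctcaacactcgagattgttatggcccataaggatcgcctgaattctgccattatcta
Rrm1 dimmest probe, chr1:160017921-160017980, rn3: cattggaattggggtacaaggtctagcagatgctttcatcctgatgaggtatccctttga
Rrm2, the small subunit, averaged -0.02 and 0.19 by its probes, and the thymidine kinase Tk1 averaged 0.09. The Rrm2 and Tk1 probes are placed on other chromosomes in rn3 than their genes in GRCr8, so these values may hold signal of near-identical copies and are uncertain.

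**Figure D3:**
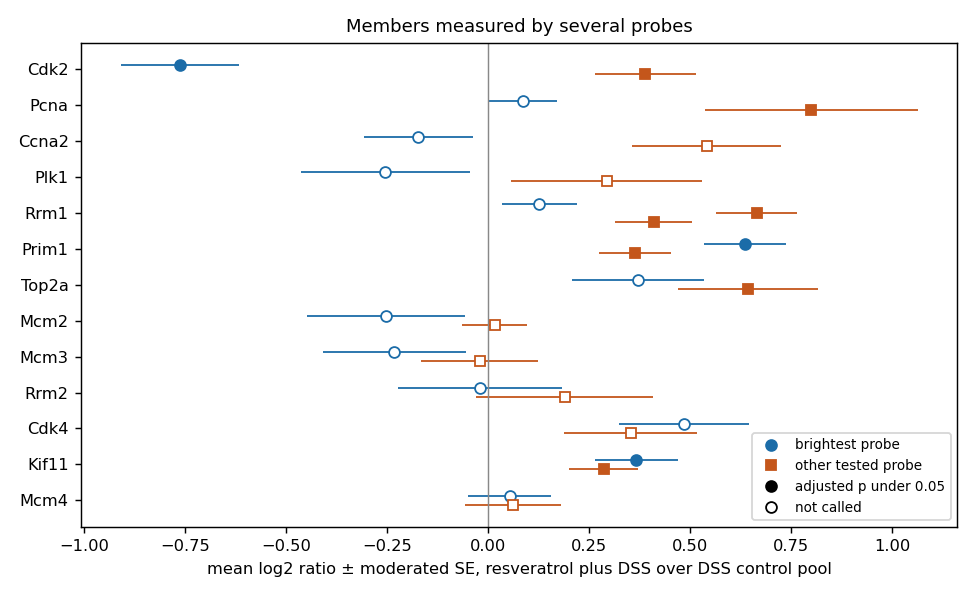
For the 13 members with several tested probes, each point is the mean log2 ratio of 1 probe with its moderated standard error, filled where the adjusted p was under 0.05. The probes of Cdk2 lie on opposite sides of 0, both filled, while both probes of Kif11 and of Prim1 are filled on the higher side.

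Agreement between probes of 1 gene bears on each of these calls. Among the 13 members with several tested probes, all probes were called the same way for 2 (Kif11 and Prim1), only some were called for 3 (Pcna, Rrm1 and Top2a), calls were opposite for 1 (Cdk2) and none were called for 7. Over the 1686 genes with several tested probes these shares were 17.7%, 49.7%, 3.62% and 29.0%. The median distance between the highest and the lowest probe of a gene was 0.27 on the log2 scale for the members, against 0.36 for all genes. If any called probe counted, 11 of the 29 members would be called higher, Cdk2 among them despite its other probe. The share of all genes called under that rule is not given here, so this count is no result about the members. This count includes probes that passed the signal filter through the resveratrol channel alone, namely the dimmer Cdk2 and Top2a probes and the tested Mcm6 and Bub1b probes. The second Kif11 probe also passed in this way, so these calls and their agreement are not independent of the filter.

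Of the 4 tested genes of mitotic entry and exit, 1 was called higher and 0 lower, with 2 and 1 at an unadjusted p under 0.05 (limma). Ube2c, the ubiquitin conjugating enzyme that works with the anaphase promoting complex, had log2 ratios of 1.31, 1.12, 0.65 and -0.04. It was highest on slide 1 and at the level of the pool for rats 7 and 8, and its mean was 0.76 ± 0.22, a ratio of 1.69 (n = 4, adjusted p = 0.0361, limma). Cdc20, the activator of the same complex, lay below the pool on all 4 arrays, with -0.73, -0.49, -3.27 and -0.78. The array of rats 5 and 6 lay far below the others, and the probe was saturated on 1 array. The mean of -1.32 ± 0.46 was not called (n = 4, adjusted p = 0.0577, limma). Without rats 5 and 6 the mean was -0.67 and was called lower (n = 3, adjusted p = 0.00687, limma), and with outlier-flagged spots kept it was -0.31 (adjusted p = 0.0255, limma). The mitotic kinase Aurka averaged 0.23 ± 0.09 with 4 of 4 arrays above 0 and was not called (n = 4, adjusted p = 0.0814, limma). Plk1, which acts from mitotic entry to cytokinesis, gave -0.25 and 0.29 by its probes, neither called.

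Of the spindle genes, 3 of 4 were called higher, with a median log2 ratio of 0.42 over the 4. Against the 25.7% of all genes called higher, no count in a role of so few genes is read as a result about that role. Kif2c, a kinesin that takes microtubules apart at centromeres and corrects faulty attachments, had 0.47, 0.39, 0.46 and 0.53. Its 4 arrays lay closer together than those of any other called member with 4 values, and the array of rats 7 and 8 was the highest. The mean was 0.46 ± 0.08, a ratio of 1.38 (n = 4, adjusted p = 0.00878, limma), and the call held in 19 of 20 alternative settings, slide 2 alone being the exception (adjusted p = 0.0717, limma). Kif11, the motor that pushes spindle poles apart, had 0.38, 0.61, 0.36 and 0.12, a mean of 0.37 ± 0.10 (n = 4, adjusted p = 0.0325, limma). Its second probe averaged 0.29 ± 0.08 (n = 4, adjusted p = 0.0368, limma), and both probes lay above 0 on all 4 arrays. In the second probe the resveratrol channel was well above background on 3 arrays and the control channel on 2. The first probe lost its call when slide was fitted as a random block (adjusted p = 0.0519, limma). Kif20a, a motor of the central spindle and cytokinesis, had 1.18 and 0.45 on slide 1 and no unflagged value on slide 2. Its mean of 0.81 ± 0.22 therefore speaks for slide 1 only (n = 2, adjusted p = 0.0462, limma), and it lost its call with the slide as a random block (adjusted p = 0.0706, limma). Prc1, which bundles midzone microtubules, averaged 0.26 and was not called.

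In the checkpoint group, Bub1b, the kinase-related BubR1 protein of the spindle assembly checkpoint, had 0.62, 0.45, 0.43 and 0.20. All 4 arrays lay above the pool and the mean was 0.42 ± 0.10, a ratio of 1.34 (n = 4, adjusted p = 0.0193, limma). Its control channel was well above background on 2 arrays, as was that of Mcm6. Aurkb, the kinase of the chromosomal passenger complex, averaged 0.23 ± 0.10 with 4 of 4 arrays above 0 and was not called (n = 4, adjusted p = 0.107, limma).

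The common proliferation markers gave no call by their brightest probes. Mki67, which encodes the Ki-67 antigen of cycling cells, had 0.003, -0.06, -0.16 and -0.19. All arrays lay near the pool, and the mean was -0.10 ± 0.08 (n = 4, adjusted p = 0.317, limma). Top2a, the topoisomerase that untangles sister DNA, had 0.73, 0.64, 0.29 and -0.18, a mean of 0.37 ± 0.16 (n = 4, adjusted p = 0.100, limma). Its dimmer probe had 0.92, 0.93, 0.72 and -0.004 and was called at 0.64 ± 0.17 (n = 4, adjusted p = 0.0284, limma). Its resveratrol channel was well above background on 3 arrays and its control channel on 2. Both Top2a probes showed the array of rats 7 and 8 at or below the pool and the other 3 above it.

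The 11 members without a test in the main fit were set aside for different reasons. For 8 of them (Bub1, Cdca8, Ccnb2, Cdc6, Cdc25b, Tyms, Pola1 and Rfc4) no probe was well above background on 3 arrays. Birc5 (survivin, of the chromosomal passenger complex) was bright enough but had under 2 values free of an outlier flag. In the alternative that kept flagged spots, Birc5 was called lower, with a mean of -0.53 ± 0.11 (n = 4, adjusted p = 0.00614, limma). Cdc45 and Cdca3 had no probe that could be matched to them. Of the dim genes, Ccnb2, the second B-type cyclin, lay above 0 on all 4 arrays, between 0.36 and 0.60. Pola1, the catalytic subunit of the polymerase that works with primase, did so by both probes, between 0.16 and 0.66. Tyms, thymidylate synthase, did so between 0.15 and 0.42. Cdc6, which loads the helicase on origins, lay below 0 on all 4, between -0.27 and -0.11. The offset of 50 added to dim spots draws their ratios toward 0, and the values of these dim genes are given without a test.

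Other genes of the cycle, taken from lists outside the 40, are given list by list. Of 4 tested G1 cyclins and kinases, 2 were higher and 0 lower (median log2 ratio 0.36): Ccnd2, cyclin D2, at 0.93 ± 0.09 (n = 4, adjusted p = 0.00409, limma) and its partner kinase Cdk6 at 0.48 ± 0.09 (n = 4, adjusted p = 0.0102, limma). Ccnd2 lay between 0.713 and 1.101, with its highest value for rats 7 and 8. Of 6 tested CDK inhibitors and RB family genes, 1 was higher and 0 lower (median 0.11), namely the retinoblastoma gene Rb1 at 0.70 ± 0.09 (n = 4, adjusted p = 0.00561, limma). Of 7 tested transcription factors, 2 were higher and 0 lower (median 0.03): Tfdp1, the dimer partner of E2F proteins, at 0.65 and Lin54, a subunit of the complex that binds CHR elements, at 0.26. Each of these 5 genes lay above 0 on all 4 arrays, including that of rats 7 and 8.

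Of 23 tested other replication genes, 5 were higher and 0 lower (median 0.14). Orc2, of the origin recognition complex, averaged 1.49 by its brightest probe, but its other probe 0.21. Uhrf1, which guides maintenance DNA methylation, averaged 0.68, and the DNA ligase Lig1 0.64. Of 33 other mitosis genes, 8 were higher and 1 lower (median 0.17), among them the checkpoint gene Bub3 at 0.94, the passenger complex scaffold Incenp at 0.80 and the spindle factor Tpx2 at 0.64. The lower one was the microtubule regulator Stmn1 at -0.44 by its brightest probe, while its other probe had 0.62. Of the DNA damage checkpoint genes, Ccng1 (0.46) and Gadd45b (0.37) were called higher and Brca1 (-0.53) lower. Against the 25.7% and 19.6% of all genes called higher and lower, none of these list counts is read as a result about its list. At an unadjusted p under 0.05, 2 of the other replication genes were lower, and none of the G1, inhibitor or transcription factor genes were. The medians of the other replication and other mitosis lists fell below 0 on the array of rats 7 and 8 (-0.13 and -0.09), as that of the 40 members did.

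Markers of cell types moved in the same samples. Of the 12 colon epithelium markers, all tested, 6 were higher and 0 lower, with a median log2 ratio of 0.84, so the epithelial markers of the labelled tissue were all measurable. A summed signal was taken over the 7 of them with values on all 4 arrays. It was 44785 to 79120 in resveratrol plus DSS samples, against 20354 to 36914 in the control pool. The medians of the epithelium markers by array were 1.07, 0.91, 0.04 and 0.92, so the low array was that of rats 5 and 6 and not that of rats 7 and 8. Of 8 tested markers of crypt base and transit amplifying cells, the compartment where dividing cells lie, 1 was higher (Myc, a growth regulator, at 1.87 ± 0.19, n = 4, adjusted p = 0.00409, limma) and 0 lower. The median of that list was 0.11, and its medians by array were 0.05, 0.20, 0.46 and -0.02, lowest for rats 7 and 8. Of the 8 markers, 6 lay above 0, while Ascl2 (-0.32) and Ephb2 (-0.73) lay below it, neither called. Lgr5 and Olfm4 were not tested. The summed signal covers the 6 with values on all 4 arrays, Myc among them but not Ascl2 or Ephb2. It was 8596 to 15728 in resveratrol plus DSS samples, against 4785 to 8213 in the control pool. Apart from Myc, the summed genes had mean log2 ratios from 0.004 (Smoc2) to 0.31 (Ephb3), none called. The sum is therefore not read as a shift of the whole list. T cell markers (4 of 5 lower, sums of 1454 to 1675 against 1654 to 2444 in the pool), neutrophil markers (3 of 3, 1106 to 3816 against 7782 to 12539) and fibroblast markers (5 of 6, 1825 to 3511 against 8538 to 11816) were lower. So were 2 of 2 macrophage, 2 of 2 endothelial, 2 of 2 erythroid, 1 of 2 B and plasma cell and 1 of 3 smooth muscle markers. The fibroblast sum left out Col1a1 (0.22, n = 3, not called), the 1 fibroblast marker above 0. The part of these marker shifts in the members' ratios was not tested.

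**Figure D4:**
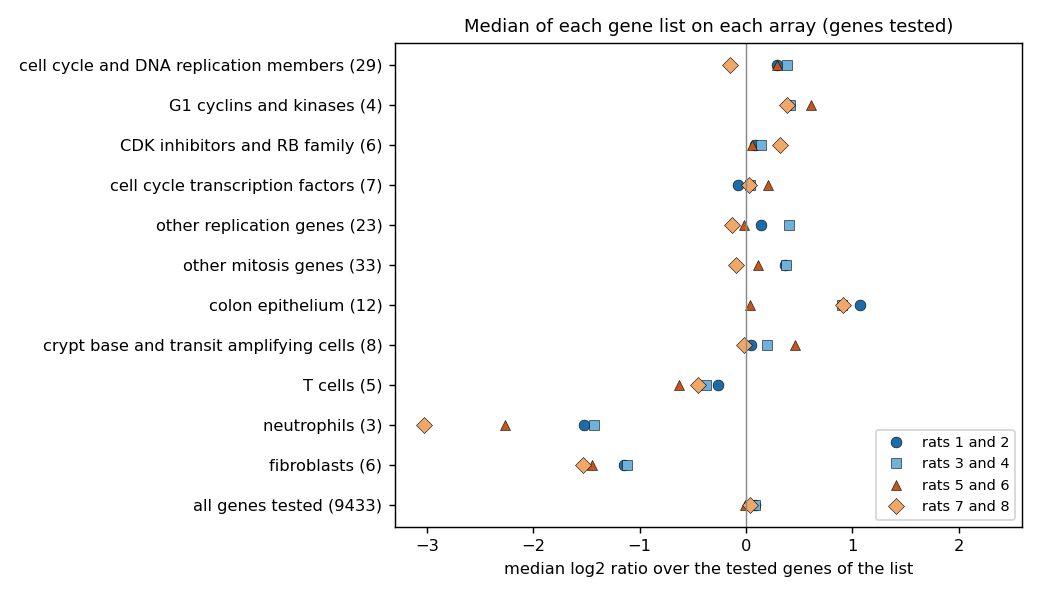
Each row is a gene list with its number of tested genes, and each point is the median log2 ratio of the list on 1 array. The members, the other replication genes and the other mitosis genes lie lowest on the array of rats 7 and 8. So do the G1 genes and the crypt, neutrophil and fibroblast markers, while the epithelium markers lie lowest on that of rats 5 and 6.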

How the data were processed

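RNA from colon mucosa was measured on 2-colour Agilent arrays with 60-base probes. Per the labels, every array carried resveratrol plus DSS RNA in Cy5 and control pool RNA in Cy3. The control pool counts as 1 control sample, so the test of the ratio against 0 leaves out the control's own spread. The sources used here do not give how many rats it held or whether it was the same pool throughout. The labels name different rats for each array, and replicates 1 to 4 follow accession order.

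Per the file headers, the deposited intensity values were made with Agilent Feature Extraction (version 9.5.3.1), and probes are placed on the rn3 build. The deposited log10 ratio of the scanner was not used. The authors' deposited table holds log2 ratios, which followed the scanner's with r between 0.98 and 0.99. Its column medians were -0.01, -0.01, 0.09 and -0.02, and its centring is not stated. The submitters' processing notes also name limma.

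Mean signals were background-corrected with normexp (offset 50) and loess-normalized within arrays in limma 3.58.1 under R 4.3.3. Weight 0 was given to the 1639 control spots and to spots with an outlier flag, and replicate spots were averaged. A probe entered if either channel was well above background on 3 or more arrays (20409 of 41012 probes). With at least 2 values, 18869 were tested, 14200 of them on 4 arrays. Mean log2 ratios were compared with 0 by lmFit and eBayes, two-sided, with Benjamini-Hochberg adjustment at 0.05. Precision is limited by there being only 4 arrays. The share of spots well above background was 44.1% to 49.2% in Cy5 and 42.8% to 57.1% in Cy3.

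A gene is represented by its brightest tested probe. Values in full are given for called members and for Mki67, Top2a, Pcna, Cdk1 and Mcm2, and in each other list for up to 3 called genes in each direction. Some results that this rule takes are not reported here. Summed signals of marker lists are sums of the normalized channel intensities over the tested genes with values on all 4 arrays. Genes were named through a RefSeq table of GRCr8, which was also used for chromosomes and to choose the protein-coding promoter windows. The members and all lists were chosen with earlier results of these data known. Tested on simulated data for this comparison, the fit over 18869 probes recovered 44% of probes changed by 1 and 79% of those changed by 2 on the log2 scale, with 4 false calls. The simulation changed only 200 probes, while 24.4% of probes were called higher and 22.7% lower in the data. Its noise was independent between arrays, with no slide correlation, dye effect or spread of the pool. These rates therefore do not carry over to the real comparison. Alternatives covered background, normalization, filters, flags, spread, slide, the authors' table, the choice of probe and each array left out.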

Additional observations from a re-analysis of the deposited data

Results flagged for a closer look

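Among the 24 members with values on all 4 arrays, 5 had 1 array standing far from the others by Dixon's gap test. For 4 of them the array was that of rats 7 and 8, at a log2 ratio of -0.12 for Cdk4, -0.24 for Mcm4, 0.014 for Mcm6 and -0.40 for Tk1, each below the other 3 arrays. For Cdc20 it was the array of rats 5 and 6, at -3.27. The Tk1 probe is placed on another chromosome in rn3 than the gene in GRCr8. Chance flags about 1 of 20 groups in this test only if groups are independent and arrays equally noisy. The members share the same arrays, and the share flagged among all genes is not given here. The count of 5 is therefore not read as a result about the members.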

How the results depend on the processing

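No paired analysis was possible because the 4 arrays form a single group, each set against the control pool, and share no replicate numbers with another group. The main count was 7 members higher and 1 lower. With median centring 15 were higher (38.4% of all genes), and with array weights 12 (30.3%). With no signal filter 13 of 37 tested members were higher (19.5% of all genes). With both channels required well above background everywhere, 1 of 19 tested members was higher (20.5%). With outlier spots kept, 14 of 30 tested members were higher and 3 lower (35.2% and 27.5%). With a wider standard error, to allow for spread in the pool, 2 were higher and 0 lower (8.12% and 2.86%). On slide 1 alone 15 were higher and 2 lower (35.2% and 22.8% of all genes). Of the 27 members tested on slide 2 alone, 0 were higher and 0 lower. With the deposited values of the authors the counts were 12 and 3 of 35 tested members (23.6% and 20.0% of all genes). The slide as a random block (correlation 0.218) gave 5 and 1 (20.7% and 14.3% of all genes) and ended the calls of Kif11 and Kif20a. The lower count was 2 with processed signals (22.0% of all genes), with no background correction (19.1%) and with scale normalization (21.7%). It was 0 with the mean of all tested probes (19.1%). Leaving out 1 array gave 2 to 12 higher and 0 to 2 lower, against 12.4% to 26.7% and 6.88% to 19.6% of all genes. On slide 2 alone, limma called 5.43% of all genes higher and 5.80% lower. Directions turned for Mki67 (0.027) and Mcm2 (0.29, from its brighter probe) under median centring and for Cdk2 (0.056) with the mean of its probes. Cdk1 passed under 10 of 21 alternatives and Top2a under 6 of 21. Ube2c lost its call under 5 of 21, Mcm6 and Bub1b each under 4 of 20, Kif11 under 6 of 20 and Kif20a under 7 of 17. Apart from the alternatives that test fewer arrays or genes, the cause was not tested. The median log2 ratio of the members (0.23) ranged from 0.07 on slide 2 alone to 0.40 under median centring. Dim signal limited 8 members.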
